A study of Rattus norvegicus with 20 samples.

Results

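Rats fed pterostilbene were compared with rats fed chlorogenic acid at an equal molar dose, by RNA sequencing of whole blood. The comparison took in 10 of the series' 20 samples: 5 CSAA+PTS rats, whose diet held pterostilbene (PTS) at 1.34 g per kg diet, and 5 CSAA+CGA rats, whose diet held chlorogenic acid (CGA) at 1.9 g per kg diet. CSAA is the choline-sufficient amino acid-defined diet that every group ate, and 5 rats on CSAA alone served as the common control. All were wild type male Fischer 344 rats aged 8 weeks by the labels, fed for 20 days and numbered as separate animals. The remaining 5 rats received resveratrol (CSAA+RSV), and 1 of them, Rat4, with only 861072 counts, was left out. Of the 32882 genes in the count table, 16734 had 2 or more reads in at least 15 of the other 19 libraries, and these were the genes tested. Rats were labelled Rat1 to Rat5 within each diet. The labels tie no rat to a cage or a sequencing lane.

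PTS is a stilbene, the dimethoxy analog of resveratrol, and occurs in blueberries. CGA belongs to another class of polyphenol, an ester of caffeic acid and quinic acid, and is abundant in coffee. A comparison of the 2 supplemented diets asks how far blood responds to one polyphenol differently from another when the number of molecules offered is the same, which a comparison of each with the unsupplemented diet does not ask. Whole blood RNA is a mixture in which reticulocytes, the young red cells that still carry RNA, supply hemoglobin transcripts, and neutrophils, monocytes, lymphocytes and platelets supply the rest. Type I interferon acts on nucleated blood cells and switches on a set of antiviral genes, among them the oligoadenylate synthetases, Irf7 and Isg15. In bulk blood, fewer cells of a type and less RNA per cell cannot be told apart, and this holds for each gene group described here.

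The libraries held 24036703 to 32775803 counts in CSAA+PTS rats and 32111022 to 36743103 counts in CSAA+CGA rats, and the means of 28436800 ± 4200550 and 34737200 ± 2023170 counts differed at p = 0.0317 in a two-sided exact permutation test, which became 0.127 after Benjamini-Hochberg adjustment over 4 library measures. The smallest p that 5 rats against 5 can give is 0.00794. Rat5 of each diet stood apart, with 29543 genes detected in CSAA+PTS Rat5, against 20497 to 21901 in the other CSAA+PTS rats, and 28014 in CSAA+CGA Rat5, against 20389 to 21887 in the other CSAA+CGA rats. Rat5 also had the most genes detected in CSAA (25104) and in CSAA+RSV (29232). Principal component 1 of the 10 libraries, with 44.6% of the variance, placed CSAA+PTS Rat5 and CSAA+CGA Rat5 at one end. Their scores were 93.2 and 62.7, and the highest of the others was 9.02, in CSAA+CGA Rat2. Defining genes of the expected blood cells were present in all 10 libraries: Alas2 of red cell precursors, Cd3e of T cells, S100a8 of neutrophils and Pf4 of platelets. Diet accounted for 8.47% of the variance over the 10 libraries (exact permutation p = 0.587).

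No gene passed the edgeR test at a Benjamini-Hochberg adjusted p of 0.05 (percent called 0), and the lowest adjusted p was 0.828. At an unadjusted p under 0.05, 874 genes were counted, 5.22% of those tested, of which 445 (2.66%) were higher with CSAA+PTS and 429 (2.56%) were lower. DESeq2 fitted to the 4 diets called 0 of 16575 genes, limma voom called 0, and DESeq2 fitted to the 2 diets alone called 3 of 16416 (0.0183%), namely Rtp4 and Oas2 (adjusted p = 0.00962 each) and RT1-Bb (adjusted p = 0.0279). All 3 were lower with CSAA+PTS. Every CSAA+PTS rat lay below every CSAA+CGA rat in 85 genes (0.508%) and above every one in 49 (0.293%), together 0.801% of those tested. A p that missed the limit did not show that the diets acted alike, so the width of the interval matters: the 95% interval of the log2 fold change lay inside a 2-fold difference in either direction for 12260 genes (73.3%), and for 4990 of the 5309 genes that averaged more than 10 CPM (94.0%), the read count scaled to library size. Of the 327 genes whose fold change exceeded 2, 246 averaged under 1 CPM and 17 averaged over 10 CPM. These 17 included 3 alpha globin genes and Cxcr4, and 7 were copies of the 5.8S rRNA gene, between which reads cannot be divided with confidence. CPM here are scaled by the trimmed mean of M values (TMM), and the fold changes come from the edgeR fit.

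**Figure D1:**
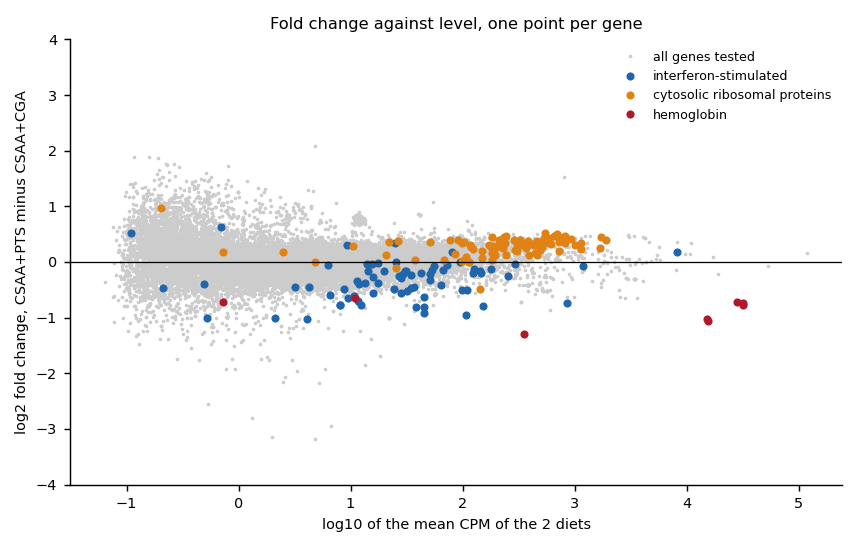
Each point is 1 of the 16734 genes tested, with the mean level in CPM on a log10 horizontal axis and the log2 fold change of CSAA+PTS over CSAA+CGA on the vertical axis. The spread narrows with rising level, and of the 327 genes past a 2-fold difference only 17 averaged over 10 CPM.

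Interferon-stimulated genes leaned toward lower levels with CSAA+PTS. Of 71 measured members, 64 had a log2 fold change below 0 with CSAA+PTS, against 47.1% of all genes, and the median was -0.33, against 0.02 over all genes tested. At an unadjusted p under 0.05, 30 members were lower, 42.3% of the list, where 2.56% of all genes were, and 1 was higher, Ifitm2. In 8 members every CSAA+PTS rat lay below every CSAA+CGA rat, as in 0.508% of all genes. Some members had been picked for their response to PTS in these same rats, so the direction of the list is a description and not independent evidence. The promoters of 4 members are printed to show the interferon-stimulated response element in its short form, which is shown in capitals. They run from 250 bases before to 50 bases after the start of the gene in RefSeq's rat assembly GRCr8, 5′ to 3′ on the strand of the gene: Lgals3bp at chr10:104127799-104128098 on the minus strand, Oas1a at chr12:41330216-41330515 on the plus strand, Ifi27 at chr6:128355062-128355361 on the plus strand and Irf7 at chr1:205799974-205800273 on the minus strand.
Lgals3bp: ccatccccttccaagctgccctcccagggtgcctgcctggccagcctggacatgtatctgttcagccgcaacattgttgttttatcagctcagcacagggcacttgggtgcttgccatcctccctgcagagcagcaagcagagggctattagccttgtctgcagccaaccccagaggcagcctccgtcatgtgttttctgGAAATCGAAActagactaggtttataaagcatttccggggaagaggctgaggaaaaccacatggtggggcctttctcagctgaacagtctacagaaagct
Oas1a: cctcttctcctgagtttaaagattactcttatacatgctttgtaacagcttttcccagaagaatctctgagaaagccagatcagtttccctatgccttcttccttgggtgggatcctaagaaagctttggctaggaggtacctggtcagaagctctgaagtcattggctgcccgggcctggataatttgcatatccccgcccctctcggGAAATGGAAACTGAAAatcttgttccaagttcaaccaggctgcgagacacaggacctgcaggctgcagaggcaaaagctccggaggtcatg
Ifi27: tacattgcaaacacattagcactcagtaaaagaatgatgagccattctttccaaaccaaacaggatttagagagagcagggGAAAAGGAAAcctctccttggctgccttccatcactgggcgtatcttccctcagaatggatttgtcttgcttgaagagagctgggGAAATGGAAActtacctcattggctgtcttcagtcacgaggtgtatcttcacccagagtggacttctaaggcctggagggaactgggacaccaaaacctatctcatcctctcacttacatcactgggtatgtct
Irf7: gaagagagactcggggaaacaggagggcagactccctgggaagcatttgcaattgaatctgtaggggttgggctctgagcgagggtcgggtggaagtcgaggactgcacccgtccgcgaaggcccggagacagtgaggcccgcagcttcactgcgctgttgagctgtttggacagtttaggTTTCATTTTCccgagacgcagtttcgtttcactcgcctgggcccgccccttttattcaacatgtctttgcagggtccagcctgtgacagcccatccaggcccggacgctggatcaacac
The capitals mark GAAA followed by 2 bases of any kind and GAAA again, or on the other strand TTTC, 2 bases and TTTC, and in Oas1a they run together because 2 matches overlap. In the order printed, the first match began 50 bases before the start in Lgals3bp, 41 in Oas1a, 169 in Ifi27 and 69 in Irf7. Of 33469 RefSeq promoters of this length, 1312 (3.92%) held the motif on either strand. Of the 51 list members that could be matched by symbol, 30 (58.8%) held it. Among the 19 matched members that were lower at an unadjusted p under 0.05, 13 held it, and among the other 32, 17 did. The median log2 fold change was -0.29 for members with the motif and -0.26 for the 21 without. A match describes the sequence and shows no binding.

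Rtp4, a receptor-transporter protein that interferon induces, had the lowest p of all genes. It was at 7.91, 9.400, 11.1, 8.46 and 8.103 CPM in CSAA+PTS Rat1 to Rat5, against 17.5, 13.9, 12.6, 15.04 and 13.7 CPM in CSAA+CGA Rat1 to Rat5. All 5 CSAA+PTS rats lay below all 5 CSAA+CGA rats, with the CSAA+PTS maximum in Rat3 and the CSAA+CGA minimum also in Rat3. The log2 fold change -0.70 (SE 0.14, 95% interval -0.99 to -0.40, edgeR unadjusted p = 9.04e-05) missed the limit after adjustment. Oas2, which makes the 2'-5' oligoadenylates that activate RNase L, was at 2.43, 2.401, 2.68, 3.696 and 2.24 CPM in CSAA+PTS Rat1 to Rat5, against 6.36, 6.505, 3.77, 6.14 and 4.84 CPM in CSAA+CGA Rat1 to Rat5. The groups did not overlap, although CSAA+PTS Rat4 and CSAA+CGA Rat3 nearly met. Its log2 fold change -1.03 (SE 0.24, 95% interval -1.54 to -0.53, edgeR unadjusted p = 4.23e-04) also missed the limit. Dhx58, which encodes the RNA sensor LGP2, was at 5.94, 4.96, 5.603, 5.17 and 4.37 CPM in CSAA+PTS Rat1 to Rat5, against 7.396, 9.25, 6.79, 10.01 and 6.09 CPM in CSAA+CGA Rat1 to Rat5. Its highest CSAA+PTS value, in Rat1, lay just under its lowest CSAA+CGA value, in Rat5, and the log2 fold change was -0.60 (95% interval -0.90 to -0.31, unadjusted p = 4.31e-04).

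Ifi27, an interferon-induced protein of the mitochondrial membrane, was at 56.4, 85.05, 104, 81.5 and 36.6 CPM in CSAA+PTS Rat1 to Rat5, against 138, 144, 189.8, 129.6 and 101 CPM in CSAA+CGA Rat1 to Rat5. CSAA+PTS Rat3 was slightly above CSAA+CGA Rat5, and the other rats were separated by diet. The log2 fold change -0.95 (SE 0.25, 95% interval -1.48 to -0.42, edgeR unadjusted p = 0.00133) missed the limit after adjustment. Lgals3bp, a secreted glycoprotein that binds galectins, was at 27.5, 44.6, 29.4, 33.3 and 20.8 CPM in CSAA+PTS Rat1 to Rat5, against 66.1, 71.98, 52.00, 75.6 and 27.4 CPM in CSAA+CGA Rat1 to Rat5. CSAA+CGA Rat5 was within the CSAA+PTS range and the other 4 CSAA+CGA rats lay above it, with a log2 fold change of -0.91 (95% interval -1.39 to -0.43, unadjusted p = 8.19e-04). Irf7, the regulator that amplifies interferon production, was far more abundant, at 485, 811, 936, 640.2 and 344 CPM in CSAA+PTS Rat1 to Rat5, against 1055, 1126, 1292, 1104 and 807 CPM in CSAA+CGA Rat1 to Rat5. CSAA+PTS Rat2 and Rat3 overlapped with CSAA+CGA Rat5, and the log2 fold change was -0.74 (95% interval -1.25 to -0.24, unadjusted p = 0.00621).

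Oas1a, another oligoadenylate synthetase, was at 20.2, 32.6, 37.8, 35.5 and 13.7 CPM in CSAA+PTS Rat1 to Rat5, against 54.5, 49.1, 51.3, 51.4 and 37.8 CPM in CSAA+CGA Rat1 to Rat5. CSAA+PTS Rat3 was level with CSAA+CGA Rat5, and the log2 fold change was -0.80 (95% interval -1.28 to -0.33, unadjusted p = 0.00233). Isg15, the ubiquitin-like modifier that is conjugated to proteins in antiviral defence, was at 19.1, 46.1, 45.5, 37.02 and 15.8 CPM in CSAA+PTS Rat1 to Rat5, against 63.8, 47.9, 55.7, 75.3 and 43.2 CPM in CSAA+CGA Rat1 to Rat5. CSAA+PTS Rat1 and Rat5 were lowest, Rat2 and Rat3 reached the bottom of the CSAA+CGA range, and the log2 fold change was -0.81 (95% interval -1.34 to -0.27, unadjusted p = 0.00502). Rnf213, a giant ubiquitin ligase, was at 105, 136, 65.7, 139.8 and 118 CPM in CSAA+PTS Rat1 to Rat5, against 223, 221, 149, 218 and 160.0 CPM in CSAA+CGA Rat1 to Rat5. No CSAA+PTS rat reached the lowest CSAA+CGA rat, Rat3, and the log2 fold change was -0.78 (95% interval -1.30 to -0.27, unadjusted p = 0.00498). Mx2 and Adar showed log2 fold changes of -0.56 and -0.53.

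By role, 7 of 11 oligoadenylate synthetase genes were lower at an unadjusted p under 0.05, with a median log2 fold change of -0.65, and Oas1g and Oas1i among them had nearly identical counts, so reads shared between these copies cannot be assigned. Of 5 genes of the ISG15 pathway 3 were lower, Isg15, the ligase Herc6 and the deconjugating enzyme Usp18, with a median of -0.51. All 6 RNA sensors and adaptors were below 0 and 3 were lower at that limit, with a median of -0.42. The IFIT and IFITM group was split, with Ifit2 lower at a log2 fold change of -0.63 (95% interval -1.09 to -0.18, unadjusted p = 0.00936), Ifitm2 higher at 0.31 (95% interval 0.01 to 0.61, unadjusted p = 0.0458), and a median of -0.08 over 7 genes. The 6 guanylate-binding and immunity-related GTPases, which respond to interferon gamma as well, had a median of -0.10. The most abundant member, Rsad2 (viperin), averaged 8782 ± 2598 CPM in CSAA+PTS rats and 7731 ± 1433 CPM in CSAA+CGA rats (SD, n = 5 each), with a log2 fold change of 0.18 (95% interval -0.38 to 0.75, unadjusted p = 0.503). The summed level of the list, in which Rsad2 is the largest part, overlapped between the diets, from 9458 to 18711 CPM in CSAA+PTS rats and from 10698 to 16087 CPM in CSAA+CGA rats.

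**Figure D2:**
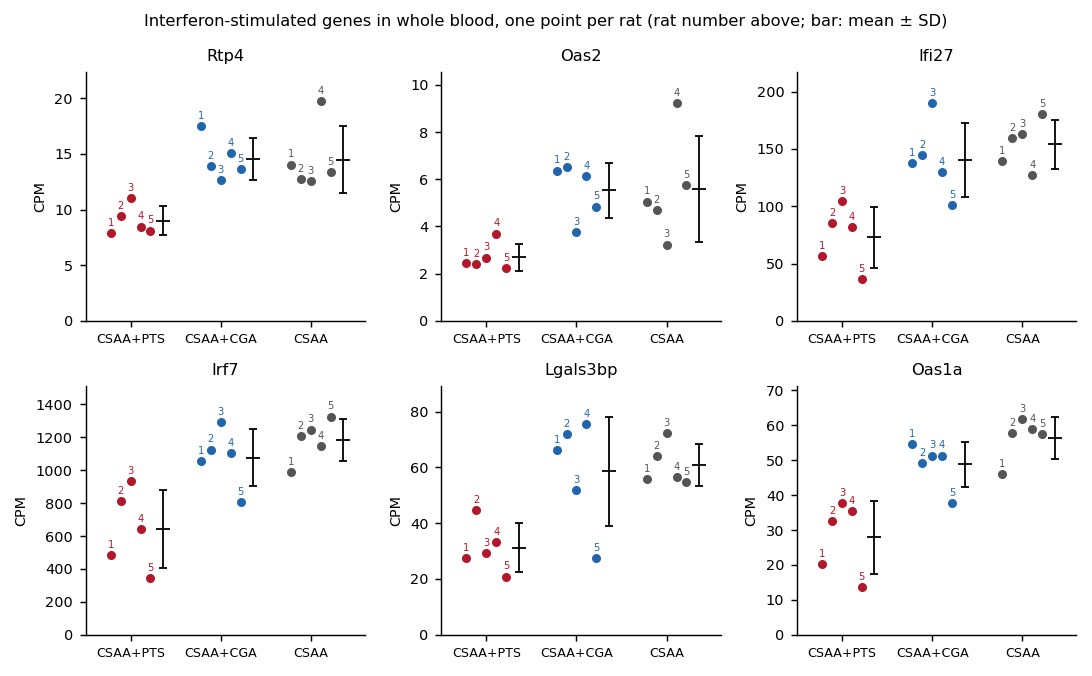
Level in CPM of 6 interferon-stimulated genes in each rat, CSAA+PTS left of CSAA+CGA and CSAA, with the mean and SD of each group of 5. Rtp4 and Oas2 show no overlap between CSAA+PTS and CSAA+CGA, while CSAA+CGA Rat5 lies within the CSAA+PTS range for Lgals3bp.

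Set beside the common control diet, the interferon list had a median log2 fold change of -0.27 with CSAA+PTS and 0.00 with CSAA+CGA, with 30 members lower at an unadjusted p under 0.05 with CSAA+PTS (4.54% of all genes were) and 0 with CSAA+CGA (0.311%). Both contrasts use the same 5 CSAA rats. Rtp4 had -0.69 against CSAA with CSAA+PTS and 0.00 against CSAA with CSAA+CGA, Oas2 had -1.06 against CSAA with CSAA+PTS and -0.02 against CSAA with CSAA+CGA, and Ifi27 had -1.08 against CSAA with CSAA+PTS and -0.13 against CSAA with CSAA+CGA. CSAA+PTS libraries were smaller, and with all counts thinned to the smallest library, an alternative chosen after seeing the data, 31 members were lower. The share of all genes lower in that fit is not given here, so this count has no background beside it. With the rats numbered 5 left out of every diet 27 members were lower, where 7.52% of all genes were. With CSAA+PTS Rat2 and Rat3 left out together, also chosen after seeing the data, 30 members were lower, where 3.06% of all genes were. The monocyte marker list, 20 genes with a summed level of 1185 to 1746 CPM in CSAA+PTS rats and 1190 to 1629 CPM in CSAA+CGA rats, had a median of -0.04 with 1 member lower. The 13 dendritic cell markers, summing to 105 to 145 CPM in CSAA+PTS rats and 100.3 to 149 CPM in CSAA+CGA rats, had a median of 0.11 with 1 member higher, Siglech.

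Hemoglobin transcripts were lower with CSAA+PTS in most rats. All 8 measured hemoglobin genes had a log2 fold change below 0, against 47.1% of all genes, 4 (against 2.56% of all genes) at an unadjusted p under 0.05, and the median was -0.76. Hba-a1, an alpha globin gene, was at 10557, 17202, 8541, 7988 and 6207 CPM in CSAA+PTS Rat1 to Rat5, against 20828, 30739.7, 20568, 25281 and 7859 CPM in CSAA+CGA Rat1 to Rat5. CSAA+PTS Rat2 was highest in its group and CSAA+CGA Rat5 lowest in its own, and the groups overlapped through CSAA+CGA Rat5 alone. The log2 fold change -1.06 (SE 0.35, 95% interval -1.80 to -0.32, edgeR unadjusted p = 0.00740) was close to that of its near-identical copy Hba-a2, -1.02 (95% interval -1.75 to -0.30, unadjusted p = 0.00819), and reads common to both copies cannot be assigned. Hbb-bs, a beta globin gene, was at 24034, 57292, 15448, 12926 and 9349 CPM in CSAA+PTS Rat1 to Rat5, against 44679, 43943, 46618, 51169 and 16849.9 CPM in CSAA+CGA Rat1 to Rat5. On this TMM scale CSAA+PTS Rat2 exceeded every CSAA+CGA rat, and the other 4 CSAA+PTS rats lay below all CSAA+CGA rats but Rat5. The interval of the log2 fold change of Hbb-bs, -1.79 to 0.24, included 0 (edgeR unadjusted p = 0.128).

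The 8 genes summed to 91316, 198812, 61229, 54962 and 40924 CPM in CSAA+PTS Rat1 to Rat5, against 167499, 185767, 166638, 204359 and 65437 CPM in CSAA+CGA Rat1 to Rat5. Without CSAA+PTS Rat2 all 8 members passed the unadjusted limit as lower, and without CSAA+PTS Rat4 only 2 did. The share of all genes lower in these fits is not given here. With each rat left out in turn, from 247 to 900 of the genes tested were lower. The share of all counts that mapped to hemoglobin genes was 8.63 ± 4.03% in CSAA+PTS rats and 15.3 ± 4.85% in CSAA+CGA rats (SD, n = 5 each). The place of CSAA+PTS Rat2 depends on the scaling, as its TMM factor of 0.750 was the lowest of its group. By the share, which uses no TMM factor, it was at 14.9%, against 15.7%, 20.5%, 15.2%, 17.9% and 7.51% in CSAA+CGA Rat1 to Rat5. By that measure it lay below every CSAA+CGA rat but Rat5. Other erythroid groups lay closer to 0 with all rats: the 15 heme synthesis genes had a median log2 fold change of 0.04 with 0 members at an unadjusted p under 0.05, and the 22 genes of erythroid transcription and maturation had -0.06 with 1 lower, Gfi1b. Without CSAA+PTS Rat2 and Rat3 both leaned downward as well, with medians of -0.18 and 1 lower for heme synthesis and -0.25 and 5 lower for erythroid transcription and maturation, where 3.06% of all genes were lower. Alas2, the first enzyme of heme synthesis in red cells, was at 13566, 23560.1, 20913, 18493 and 11559 CPM in CSAA+PTS Rat1 to Rat5, against 16454, 12116, 19282, 19766 and 15648 CPM in CSAA+CGA Rat1 to Rat5. The groups overlapped throughout, and the log2 fold change was 0.08 (95% interval -0.48 to 0.64, unadjusted p = 0.765). Among 21 red cell membrane genes the median was -0.16 with 1 lower, Piezo1, and -0.29 with 1 lower without those 2 rats, and the anion exchanger Slc4a1 had -0.63 (95% interval -1.26 to 0.01, unadjusted p = 0.0533). Against CSAA the median of the 8 hemoglobin genes was -1.12 with CSAA+PTS and -0.23 with CSAA+CGA.

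**Figure D3:**
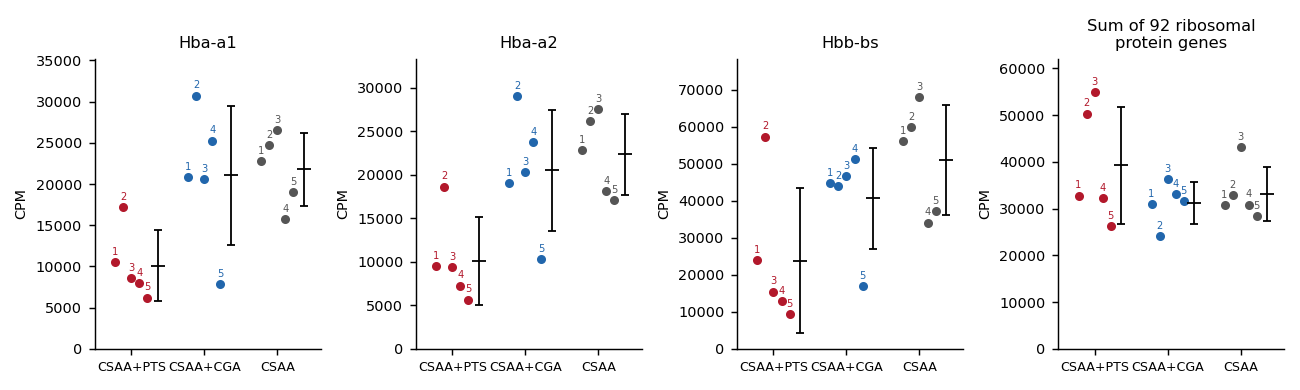
Levels in CPM of Hba-a1, Hba-a2, Hbb-bs and the sum of 92 ribosomal protein genes in each rat, CSAA+PTS left of CSAA+CGA and CSAA, with the mean and SD of each group of 5. CSAA+PTS Rat2 is the highest of its group for the globins, and CSAA+PTS Rat2 and Rat3 stand above all CSAA+CGA rats for the ribosomal sum on the TMM scale.

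Genes of cytosolic ribosomal proteins, the protein part of the translation machinery, leaned the other way. Of 92 measured, 90 had a log2 fold change above 0, against 52.9% of all genes, the median was 0.31, and 12 were higher at an unadjusted p under 0.05, 13% of the list against 2.66% of all genes. Their summed level was 32777, 50320.5, 54853, 32176 and 26185 CPM in CSAA+PTS Rat1 to Rat5, against 30908, 24166, 36283, 33159.7 and 31569 CPM in CSAA+CGA Rat1 to Rat5. On this TMM scale Rat2 and Rat3 of CSAA+PTS were far above the rest, and the other 3 lay within the CSAA+CGA range. The picture depends on the scaling: as a share of all counts, with no TMM factor, these genes made up 3.71%, 3.77%, 4.71%, 3.97% and 3.74% in CSAA+PTS Rat1 to Rat5, against 2.89%, 2.66%, 3.30%, 2.91% and 3.62% in CSAA+CGA Rat1 to Rat5. By that share every CSAA+PTS rat was above every CSAA+CGA rat, Rat3 was the highest and Rat2 did not stand apart. In 85 of the 92 genes CSAA+PTS Rat2 and Rat3 were, in CPM, the highest of the CSAA+PTS group. With both left out the median was -0.03 and 1 member was higher, where 3.2% of all genes were. Without Rat3 alone 0 members were higher, where 201 of the genes tested were. With the rats numbered 5 left out of every diet 41 were higher, against 6.85% of all genes. Rps24, of the small subunit, was at 724, 842, 1122, 744 and 669.6 CPM in CSAA+PTS Rat1 to Rat5, against 526, 496, 618, 552 and 692 CPM in CSAA+CGA Rat1 to Rat5. Only CSAA+PTS Rat5 was under the top CSAA+CGA value, in Rat5, and the log2 fold change was 0.51 (95% interval 0.10 to 0.92, unadjusted p = 0.0169). Many ribosomal protein genes have processed copies in the genome that share reads with them. The 51 ribosome biogenesis genes, which assemble rather than form the ribosome, had a median of -0.03. At the unadjusted limit 1 was higher and 4 were lower, where 2.66% of all genes were higher and 2.56% lower.

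CSAA+PTS Rat2 and Rat3 also stood apart in several single genes. Of 18 glucocorticoid-responsive genes they were, in CPM, the highest of CSAA+PTS in 9 and the lowest in 3. For Rat2 and Rat3 of CSAA+CGA within their own group these counts were 0 and 1. At an unadjusted p under 0.05, 3 members were higher, Cxcr4, Tsc22d3 and Klf9, where 2.66% of all genes were. Rgs1, which dampens chemokine receptor signals in lymphocytes, was at 1.83, 17.6, 15.2, 2.66 and 2.04 CPM in CSAA+PTS Rat1 to Rat5, against 1.58, 2.15, 2.003, 1.64 and 1.84 CPM in CSAA+CGA Rat1 to Rat5. Rat2 and Rat3 of CSAA+PTS were high and the other 8 rats lay close together. Its log2 fold change 2.08 (SE 0.50, 95% interval 1.03 to 3.14, edgeR unadjusted p = 5.72e-04) became 0.26 (unadjusted p = 0.142) with both left out. Cxcr4, the receptor of the chemokine CXCL12, was at 31.7, 138, 137, 46.4 and 20.3 CPM in CSAA+PTS Rat1 to Rat5, against 41.3, 28.2, 47.3, 33.7 and 24.9 CPM in CSAA+CGA Rat1 to Rat5. The same 2 rats were high, and the log2 fold change of 1.09 (95% interval 0.25 to 1.92, unadjusted p = 0.0135) became -0.064 (edgeR unadjusted p = 0.809) without them. Tsc22d3, the glucocorticoid-induced leucine zipper, was at 109, 227, 230.2, 122 and 61.7 CPM in CSAA+PTS Rat1 to Rat5, against 121, 78.2, 121, 87.8 and 62.8 CPM in CSAA+CGA Rat1 to Rat5. Its log2 fold change of 0.67 (95% interval 0.08 to 1.26, unadjusted p = 0.0288) became 0.08 (edgeR unadjusted p = 0.747) without both rats.

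Cd69, an early activation marker of lymphocytes, was at 23.95, 42.97, 41.6, 22.98 and 18.7 CPM in CSAA+PTS Rat1 to Rat5, against 17.6, 20.5, 24.04, 16.1 and 14.7 CPM in CSAA+CGA Rat1 to Rat5. Rat2 and Rat3 of CSAA+PTS were high, CSAA+PTS Rat1 and CSAA+CGA Rat3 were level, and the log2 fold change of 0.69 (95% interval 0.24 to 1.14, unadjusted p = 0.00442) became 0.26 (edgeR unadjusted p = 0.183) without both rats. Hsp90aa1, the stress-inducible form of the chaperone HSP90, was highest in CSAA+PTS Rat3, at 63.9, 97.8, 154, 76.1 and 52.1 CPM in CSAA+PTS Rat1 to Rat5, against 58.6, 61.7, 61.99, 59.3 and 51.01 CPM in CSAA+CGA Rat1 to Rat5. Its log2 fold change of 0.60 (95% interval 0.16 to 1.04, unadjusted p = 0.0107) became 0.16 (edgeR unadjusted p = 0.334) without both. Of 38 heat shock and chaperone genes 4 were higher at an unadjusted p under 0.05, where 2.66% of all genes were, with a median of 0.14. In 25 of them Rat2 and Rat3 were the highest CSAA+PTS rats, and in 4 Rat2 and Rat3 of CSAA+CGA were the highest of their group. With both left out 0 were higher and the median was 0.01. Nuclear genes of oxidative phosphorylation followed the same rats, which were the highest of CSAA+PTS in 66 of 82. In all rats the median log2 fold change was 0.14 with 1 higher at the unadjusted limit, where 2.66% of all genes were. Without both it was -0.09 with 8 lower, where 3.06% of all genes were. With the rats numbered 5 left out of every diet 12 were higher, where 6.85% of all genes were. Rat2 and Rat3 of CSAA+CGA were the highest of their group in 1 of 82. The TMM factors of CSAA+PTS Rat2 and Rat3, 0.750 and 0.858, were the lowest of their group, against 1.13, 1.23 and 1.43. A lower factor raises the CPM of a library, so these counts depend on the scaling. The matching share over all genes was not counted.

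B cell genes were low in the same 2 rats. They were the lowest of CSAA+PTS in 17 of 22 B cell markers. Rat2 and Rat3 of CSAA+CGA were the highest of their group in 9 of the 22 and the lowest in 0. The matching share over all genes was not counted here either. The summed level of the list ran from 266 to 464 CPM in CSAA+PTS rats and from 386 to 492 CPM in CSAA+CGA rats. Fcer2, the low-affinity IgE receptor CD23, was at 8.09, 3.17, 2.75, 6.58 and 9.21 CPM in CSAA+PTS Rat1 to Rat5, against 8.11, 8.91, 8.67, 9.16 and 7.51 CPM in CSAA+CGA Rat1 to Rat5. Rat2 and Rat3 of CSAA+PTS were low and the others overlapped with CSAA+CGA, at a log2 fold change of -0.50 (95% interval -1.08 to 0.08, unadjusted p = 0.0862). The B cell list had a median of -0.24 with 1 member lower, Fcmr, and 0.03 with 0 lower without the 2 rats. With the rats numbered 5 left out of every diet the median was -0.38 and 8 members were lower, where 7.52% of all genes were. Principal component 2, with 18.7% of the variance, placed CSAA+PTS Rat3, CSAA+PTS Rat2 and CSAA+CGA Rat5 at one end (scores 56.5, 29.7 and 25.8). The diets did not separate on it (exact permutation p = 0.230, 0.460 after Benjamini-Hochberg adjustment over 4 components). The part that the share of B cells has in the other values of CSAA+PTS Rat2 and Rat3 was not tested.

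**Figure D4:**
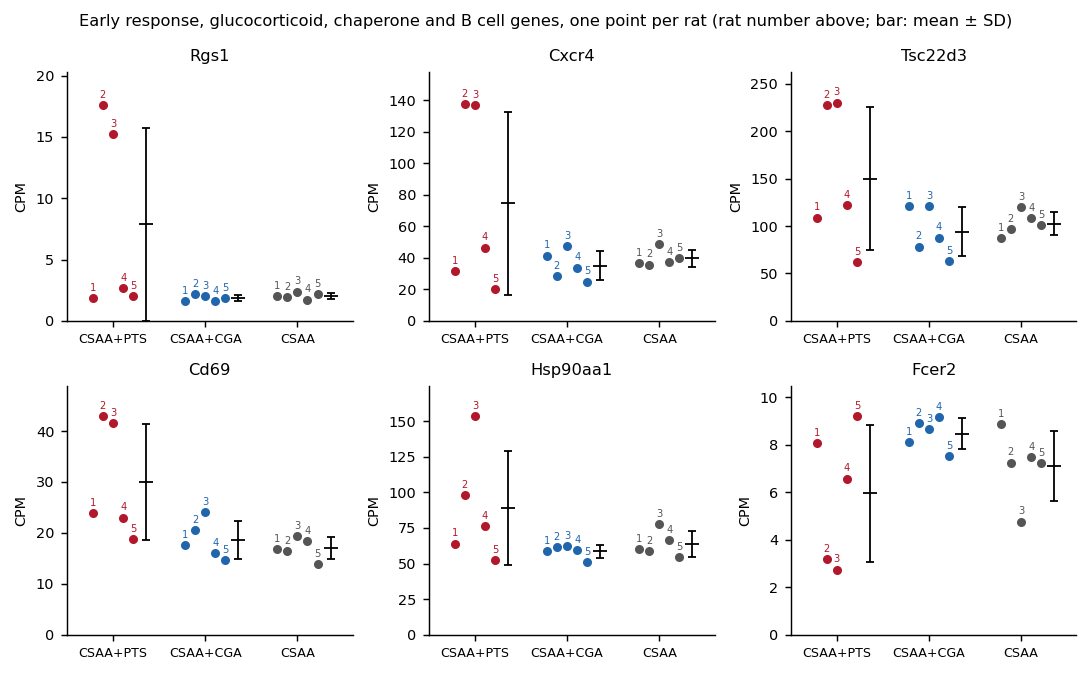
Level in CPM of 6 genes in each rat, CSAA+PTS left of CSAA+CGA and CSAA, with the mean and SD of each group of 5. CSAA+PTS Rat2 and Rat3 lie above every other rat shown for Rgs1 and Cxcr4, and below the other CSAA+PTS rats for Fcer2.

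Markers of natural killer and cytotoxic cells leaned upward with CSAA+PTS: 21 of 26 were above 0, against 52.9% of all genes, 5 were higher at an unadjusted p under 0.05 (19.2% of the list, against 2.66% of all genes), and the median was 0.19. Klrd1, the CD94 chain of natural killer receptors, was at 20.9, 19.5, 27.7, 19.9 and 16.9 CPM in CSAA+PTS Rat1 to Rat5, against 16.2, 15.9, 15.8, 14.4 and 14.8 CPM in CSAA+CGA Rat1 to Rat5. All CSAA+PTS rats lay above all CSAA+CGA rats, with Rat3 the highest, and the log2 fold change 0.44 (SE 0.16, 95% interval 0.11 to 0.78, edgeR unadjusted p = 0.0120) missed the limit after adjustment. Klrc2, a partner of CD94, was at 8.56, 6.51, 8.67, 9.59 and 9.79 CPM in CSAA+PTS Rat1 to Rat5, against 7.07, 8.17, 7.57, 6.01 and 5.796 CPM in CSAA+CGA Rat1 to Rat5. CSAA+PTS Rat2 was within the CSAA+CGA range and the other 4 were above it, at a log2 fold change of 0.32 (95% interval 0.05 to 0.59, unadjusted p = 0.0242). Gzmk, a granzyme of cytotoxic lymphocytes, was highest in CSAA+PTS Rat3, at 12.6, 18.1, 32.8, 16.2 and 12.7 CPM in CSAA+PTS Rat1 to Rat5, against 12.9, 10.8, 14.1, 11.6 and 13.8 CPM in CSAA+CGA Rat1 to Rat5, with a log2 fold change of 0.55 (95% interval 0.01 to 1.09, unadjusted p = 0.0458). The summed level of the list ran from 226 to 346 CPM in CSAA+PTS rats and from 219.7 to 249 CPM in CSAA+CGA rats. Without CSAA+PTS Rat2 and Rat3, 1 member was higher, where 3.2% of all genes were, and the median was 0.04.

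Among 23 neutrophil markers 3 were higher at an unadjusted p under 0.05 (13% of the list, against 2.66% of all genes), the formyl peptide receptors Fpr1 and Fpr2 and the granule protein Ngp, and the median was 0.36. Fpr2 was at 0.859, 2.08, 2.28, 1.501 and 0.641 CPM in CSAA+PTS Rat1 to Rat5, against 0.711, 0.877, 0.897, 0.472 and 0.909 CPM in CSAA+CGA Rat1 to Rat5. CSAA+PTS Rat2, Rat3 and Rat4 were above all CSAA+CGA rats, and the other 2 were among them, at a log2 fold change of 0.92 (95% interval 0.25 to 1.59, unadjusted p = 0.0101). Ngp was highest in CSAA+PTS Rat3, at 1.29, 3.09, 9.14, 1.13 and 1.46 CPM in CSAA+PTS Rat1 to Rat5, against 1.13, 2.23, 1.38, 0.850 and 1.55 CPM in CSAA+CGA Rat1 to Rat5. Without CSAA+PTS Rat2 and Rat3 the median of the list was -0.04 and 0 members were higher. S100a9, the most abundant alarmin of neutrophils in the list, averaged 430.4 ± 144 CPM in CSAA+PTS rats and 323 ± 85.8 CPM in CSAA+CGA rats (SD, n = 5 each). The 30 T cell markers had a median of -0.06 with 1 lower, Cd5, and the 26 platelet markers a median of -0.03 with 0 in either direction. Without CSAA+PTS Rat2 and Rat3 the T cell median was 0.06 with 0 lower. The platelet median was then -0.26 with 2 lower, where 3.06% of all genes were.

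Genes of antigen presentation were mostly below 0 with CSAA+PTS, 34 of 41 against 47.1% of all genes, with a median log2 fold change of -0.22. At an unadjusted p under 0.05, 3 were lower, where 2.56% of all genes were, namely RT1-Bb, RT1-Db2 and Nlrc5. RT1-Bb, a chain of a rat MHC class II molecule, was at 18.9, 21.97, 14.5, 19.95 and 17.7 CPM in CSAA+PTS Rat1 to Rat5, against 23.7, 30.7, 29.8, 30.8 and 29.1 CPM in CSAA+CGA Rat1 to Rat5. All CSAA+PTS rats lay below all CSAA+CGA rats, with CSAA+PTS Rat3 the lowest and CSAA+CGA Rat1 set below its group. The log2 fold change -0.63 (SE 0.20, 95% interval -1.05 to -0.21, edgeR unadjusted p = 0.00525) missed the limit, while DESeq2 on the 2 diets gave an adjusted p of 0.0279. RT1 genes are similar to one another and can share reads. Cd74, the invariant chain that accompanies class II molecules, was at 106, 72.1, 59.2, 73.6 and 83.2 CPM in CSAA+PTS Rat1 to Rat5, against 89.8, 115, 104, 108 and 80.8 CPM in CSAA+CGA Rat1 to Rat5. The ranges overlapped, CSAA+PTS Rat1 being near the top of CSAA+CGA, and the log2 fold change was -0.34 (95% interval -0.68 to 0.01, unadjusted p = 0.0553). Nlrc5, the regulator of class I genes, had -0.46 (95% interval -0.91 to -0.02, unadjusted p = 0.0399). With CSAA+PTS Rat2 and Rat3 left out, 14 members of the list were lower and 1 was higher, where 3.06% of all genes were lower and 3.20% higher.

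Among pathways often discussed for dietary polyphenols, the NF-kB and inflammatory cytokine list had 1 member higher and 2 lower at the unadjusted limit. Its median log2 fold change was -0.16. The other such lists given here had, with all rats, 0 to 2 members each past the unadjusted limit. Of all genes 5.22% passed it, 2.66% as higher and 2.56% as lower. Of 30 Nrf2 and antioxidant genes 0 were at an unadjusted p under 0.05, with a median log2 fold change of 0.02. Without CSAA+PTS Rat2 and Rat3 the median of these genes was -0.15 and 3 were lower, where 3.06% of all genes were. Nqo1, a classic Nrf2 target, was at 2.83, 3.99, 3.14, 4.27 and 2.13 CPM in CSAA+PTS Rat1 to Rat5, against 3.23, 2.74, 2.18, 4.97 and 2.36 CPM in CSAA+CGA Rat1 to Rat5. The ranges overlapped, and the interval of its log2 fold change was -0.37 to 0.53. Gclc, of glutathione synthesis, had an interval of -0.20 to 0.23, and Hmox1, heme oxygenase, one of -0.46 to 0.53. The 32 PPAR targets and fatty acid oxidation genes had a median of 0.04 with 1 lower, Ech1. All 4 measured genes of the aryl hydrocarbon receptor pathway missed the unadjusted limit, and of 10 estrogen receptor genes 1 was lower, Ncoa2. Of 33 nutrient sensing genes 2 were lower, Sirt6 and the AMPK subunit Prkab1, and the median was -0.02.

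Sirt6, a deacetylase of chromatin, was at 2.29, 2.36, 2.18, 2.48 and 2.303 CPM in CSAA+PTS Rat1 to Rat5, against 3.16, 2.72, 3.23, 3.24 and 4.17 CPM in CSAA+CGA Rat1 to Rat5. All CSAA+PTS rats lay below all CSAA+CGA rats, though the CSAA+PTS values were within a narrow range, and the log2 fold change -0.51 (SE 0.15, 95% interval -0.82 to -0.20, edgeR unadjusted p = 0.00264) missed the limit after adjustment. Among 25 genes of the integrated stress response 2 were lower at an unadjusted p under 0.05, where 2.56% of all genes were. Slc7a5, the large neutral amino acid transporter, was at 20.2, 43.2, 18.5, 32.2 and 16.3 CPM in CSAA+PTS Rat1 to Rat5, against 51.7, 56.7, 41.8, 68.7 and 21.6 CPM in CSAA+CGA Rat1 to Rat5. CSAA+CGA Rat5 was among the CSAA+PTS rats, and CSAA+PTS Rat2 and Rat4 were within the CSAA+CGA range. The log2 fold change was -0.88 (95% interval -1.50 to -0.26, edgeR unadjusted p = 0.00768). Sesn2, a sestrin that responds to stress and amino acid shortage, had -0.33 (95% interval -0.57 to -0.09, unadjusted p = 0.00880). Among 27 immediate early genes 3 were higher, Rgs1, Cd69 and Ier2, and 3 lower, Nr4a1, Zfp36 and Klf2. Of all genes 2.66% were higher and 2.56% lower. Nr4a1, an orphan nuclear receptor, was at 2.83, 2.12, 2.03, 3.46 and 3.38 CPM in CSAA+PTS Rat1 to Rat5, against 4.39, 6.19, 4.04, 5.004 and 3.46 CPM in CSAA+CGA Rat1 to Rat5. CSAA+CGA Rat5 was level with CSAA+PTS Rat4, and the log2 fold change was -0.73 (95% interval -1.22 to -0.24, unadjusted p = 0.00558). Across the 40 lists, 8 had no member at an unadjusted p under 0.05, and 20 had a median between -0.1 and 0.1.

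**Figure D5:**
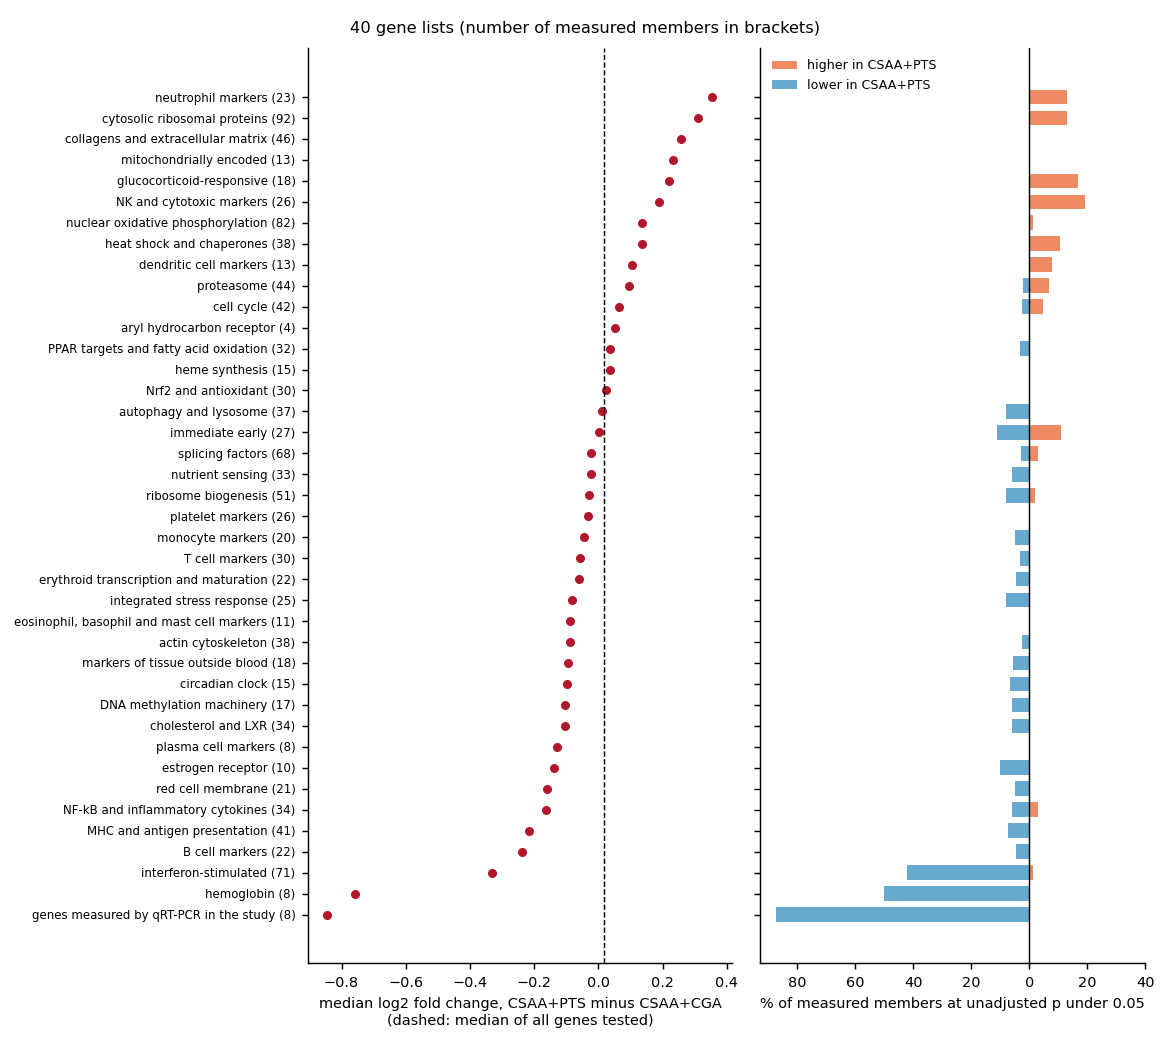
For each of 40 gene lists, the median log2 fold change of CSAA+PTS over CSAA+CGA and the percent of members higher or lower at an unadjusted p under 0.05. Members lower made up 42.3% of the interferon list and 50% of the 8 hemoglobin genes, and the ribosomal protein list has a median of 0.31.

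Outside the lists, Pcsk1, a prohormone convertase, had the lowest p among genes higher with CSAA+PTS. It was at 0.824, 3.05, 3.14, 2.45 and 1.17 CPM in CSAA+PTS Rat1 to Rat5, against 0.904, 0.933, 0.718, 1.04 and 0.639 CPM in CSAA+CGA Rat1 to Rat5. CSAA+PTS Rat2, Rat3 and Rat4 were far above all CSAA+CGA rats, Rat5 was narrowly above them and Rat1 was within their range. The log2 fold change 1.33 (SE 0.31, 95% interval 0.69 to 1.97, edgeR unadjusted p = 3.65e-04) came from a gene of 23 to 88 counts per CSAA+PTS library and 24 to 33 per CSAA+CGA library, and it was 0.84 (edgeR unadjusted p = 0.0124) without CSAA+PTS Rat2 and Rat3. Ctsc, the cathepsin that activates granule proteases of neutrophils and cytotoxic cells, was at 23.2, 31.7, 27.7, 24.9 and 21.02 CPM in CSAA+PTS Rat1 to Rat5, against 20.1, 21.5, 19.5, 19.01 and 19.1 CPM in CSAA+CGA Rat1 to Rat5. CSAA+PTS Rat5 lay just below CSAA+CGA Rat2 and the groups otherwise did not overlap, at a log2 fold change of 0.37 (95% interval 0.17 to 0.57, unadjusted p = 0.00111). Smaller differences in the same direction were found for Mrps35, of the mitochondrial ribosome (0.39), the thioredoxin-like Txndc12 (0.33), Naa16 of N-terminal acetylation (0.40) and Btbd1 (0.27).

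Lower with CSAA+PTS outside the interferon list were Calcoco1, Dcaf15, Sf3a2, Fbxo46 and Rcc2. Calcoco1, a coactivator and autophagy receptor, was at 18.5, 21.1, 16.1, 21.4 and 19.4 CPM in CSAA+PTS Rat1 to Rat5, against 28.8, 33.5, 23.6, 28.4 and 20.2 CPM in CSAA+CGA Rat1 to Rat5. CSAA+CGA Rat5 was within the upper part of the CSAA+PTS range, and the log2 fold change was -0.48 (95% interval -0.72 to -0.24, unadjusted p = 5.44e-04). The locus LOC100912282 had almost the same level and a log2 fold change of -0.48, so reads may be shared between these annotations. Dcaf15, a substrate receptor of a ubiquitin ligase, was at 3.72, 2.81, 3.28, 3.67 and 3.91 CPM in CSAA+PTS Rat1 to Rat5, against 4.36, 4.86, 4.75, 4.37 and 4.69 CPM in CSAA+CGA Rat1 to Rat5. The groups did not overlap, at a log2 fold change of -0.40 (95% interval -0.62 to -0.19, unadjusted p = 8.11e-04). Sf3a2, a core splicing factor, had -0.88 (95% interval -1.36 to -0.41, edgeR unadjusted p = 9.32e-04). The 68 splicing factors as a list had a median of -0.02 with 2 higher and 2 lower, where 2.66% and 2.56% of all genes were. Fbxo46 had -0.52 and Rcc2 had -0.48. Atg9a, the lipid scramblase of autophagosome formation, was at 7.91, 7.85, 5.32, 7.51 and 7.404 CPM in CSAA+PTS Rat1 to Rat5, against 11.1, 11.96, 11.1, 10.5 and 8.37 CPM in CSAA+CGA Rat1 to Rat5. The groups were separate, with CSAA+PTS Rat3 the lowest, at a log2 fold change of -0.56 (95% interval -0.87 to -0.24, edgeR unadjusted p = 0.00146). Of 37 autophagy and lysosome genes 3 were lower at an unadjusted p under 0.05, where 2.56% of all genes were.

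A set of 8 genes had also been measured by qRT-PCR, chosen for their response to PTS against CSAA in these rats, so their lean toward lower values with CSAA+PTS was partly fixed by that choice. All 8 were below 0 against CSAA+CGA as well, with a median log2 fold change of -0.84, and 7 were at an unadjusted p under 0.05. The exception was Pltp, the phospholipid transfer protein of plasma lipoproteins, at 4.15, 9.89, 5.28, 4.62 and 3.498 CPM in CSAA+PTS Rat1 to Rat5, against 10.2, 5.49, 7.12, 9.16 and 3.88 CPM in CSAA+CGA Rat1 to Rat5. CSAA+PTS Rat2 was well above its group and CSAA+CGA Rat5 was low, so the groups overlapped, and the log2 fold change was -0.39 (95% interval -1.03 to 0.25, unadjusted p = 0.219). Against the control diet Pltp had -0.97 against CSAA with CSAA+PTS and -0.59 against CSAA with CSAA+CGA. The other members were Ifi27, Irf7, Lgals3bp, Oas1a, Oas2, Rtp4 and Slc7a5.

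Markers of tissue outside blood varied widely between rats. Of 18 tested, 0 were higher and 1 was lower at an unadjusted p under 0.05, Krt5, and with the rats numbered 5 left out 3 were higher, where 6.85% of all genes were, and 1 was lower. Col3a1, a fibrillar collagen, was at 3.37, 4.96, 12.4, 8.92 and 13.6 CPM in CSAA+PTS Rat1 to Rat5, against 1.87, 5.46, 2.99, 2.11 and 128 CPM in CSAA+CGA Rat1 to Rat5. CSAA+CGA Rat5 alone was high, and the log2 fold change was -1.69 with all rats and 1.24 with the rats numbered 5 left out. Krt5, a keratin of squamous epithelium, was at 0.286, 0.0814, 0.500, 0.289 and 0.816 CPM in CSAA+PTS Rat1 to Rat5, against 0.0323, 13.3, 0.0299, 0.0944 and 4.54 CPM in CSAA+CGA Rat1 to Rat5. CSAA+CGA Rat2 and Rat5 were high. The 18 markers summed to 29.7 to 58.4 CPM in CSAA+PTS rats and 29.1 to 212 CPM in CSAA+CGA rats. Their part in the results above was not tested.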

How the data were processed

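Whole blood RNA was made into TruSeq Stranded libraries and sequenced as single 50-base reads, 4 rats per lane. The authors deposited raw read counts per gene. By the submitters' processing notes and the study's methods, FastQC 0.11, Trimmomatic 0.32, the FastX-Toolkit, TopHat2 2.1 (build rn6), Rsubread and DESeq2 1.30 were used. The sources used here give neither the strand setting used for counting nor the lane of each rat, so overlapping and antisense genes cannot be told apart with certainty.

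Counts were tested with edgeR 4.0.16 (R 4.3.3; TMM, quasi-likelihood, diet as the only term, 19 libraries) with Benjamini-Hochberg adjustment over 16734 genes. DESeq2 1.42.0, limma 3.58.1 voom with sample weights, other filters and scalings, the rat number as a block and left-out rats were alternatives. The scripts were tested on simulated data. Library measures used exact permutation tests. Replicates of a diet are separate rats, and pairs of libraries differed by more than sampling noise (lowest chi-square per degree of freedom 25.3).

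Gene lists and members were chosen with earlier results of these data known. Genes were selected by rule: the 12 with the lowest p per direction and the 2 with the lowest p in each list. The 8 qRT-PCR genes, Hba-a1, and genes called by DESeq2 or the block fit were added. Not all of the selected genes are described above, and Vom2r16, Wdsub1, Ftsj1, Uchl5, Znfx1 and Helz2 are among those left out. Other list members named were chosen after their values were seen. Total counts were 24036703 to 36743103 in the 10 libraries, and the spread between 5 rats sets the precision.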

Additional observations from a re-analysis of the deposited data

Results flagged for a closer look

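Of 208 groups of 5 rats examined for named genes and 10 for library measures, 16 held a rat far from the other 4 by Dixon's test, where chance alone sets apart a rat in about 1 group in 20. In CSAA+PTS, Rat5 stood apart with 29543 genes detected, Mt-nd6 at 36.9 CPM, Btbd1 at 24.5 CPM and Ahrr at 0.700 CPM. CSAA+PTS Rat3 stood apart for Ngp at 9.14 CPM and Atg9a at 5.32 CPM, and CSAA+PTS Rat2 for Pltp at 9.89 CPM. In CSAA+CGA, Rat5 stood apart with 28014 genes detected, Col3a1 at 128 CPM (others 1.87 to 5.46), Mt-co1 at 6420.0 CPM, Mt-nd6 at 21.0 CPM and Rcc2 at 5.13 CPM. CSAA+CGA Rat2 stood apart for Cox7a2l at 125.9 CPM, Srsf12 at 6.56 CPM and Ahr at 5.80 CPM, and CSAA+CGA Rat1 for RT1-Bb at 23.7 CPM.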

How the results depend on the processing

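The count of genes called stayed at 0 in edgeR with each rat left out, with other filters and scalings and with limma voom, and became 3 with DESeq2 on 2 diets. At an unadjusted p under 0.05, limma voom counted 940 higher and 1119 lower genes and 8 lower hemoglobin genes. Without the rats numbered 5, 1147 genes were higher and 1259 lower, and 41 ribosomal protein genes were higher. Without CSAA+PTS Rat2 and Rat3, 1 ribosomal protein gene was higher and 8 hemoglobin genes were lower, where 3.2% of all genes were higher and 3.06% lower. With each of the 10 rats left out in turn, genes called ran from 0 to 0, higher genes from 201 (without CSAA+PTS Rat3) to 1012 (without CSAA+PTS Rat5), lower genes from 247 (without CSAA+CGA Rat2) to 900.0 (without CSAA+PTS Rat5), lower interferon genes from 22 (without CSAA+CGA Rat4) to 32 (without CSAA+CGA Rat3), lower hemoglobin genes from 2 (without CSAA+PTS Rat4) to 8 (without CSAA+PTS Rat2) and higher ribosomal protein genes from 0 (without CSAA+PTS Rat3) to 35 (without CSAA+PTS Rat5).

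Rats that share a number did not pair: the correlations of their deviations were 0.17, -0.29, 0.20, 0.12 and 0.66 for Rat1 to Rat5, and only Rat3 and Rat5 correlated best with their own number. With the number as a replicate block, edgeR on 19 libraries counted 778 higher and 925 lower genes, 7 lower hemoglobin genes and 21 higher ribosomal protein genes, and on 10 libraries 6 higher ribosomal protein genes. DESeq2 with the block called 36 genes and counted 899 higher and 789 lower, with 7 hemoglobin genes lower and 28 ribosomal protein genes higher.

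Log2 fold changes that turned sign were Krt5 (0.73, limma voom), Col3a1 (1.05 with limma voom, 0.42 with the block on 10 libraries, 1.48 without CSAA+CGA Rat5, 1.24 without the rats numbered 5) and Ahrr (-0.46 without CSAA+PTS Rat5). With each rat left out in turn they ran from -1.996 to 1.48 for Col3a1 and from -0.46 to 1.69 for Ahrr. Without CSAA+PTS Rat2 and Rat3 the sign turned for Tmem14c (-0.12), Ngp (-0.13), Ahr (0.019) and Cxcr4 (-0.064). The cause of these differences was not tested.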
